A study of Mus musculus with 12 samples.

Results

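The C/EBP transcription factors are named for binding CCAAT sequences and enhancers, and the mouse genome holds 6 genes with the name: *Cebpa*, *Cebpb*, *Cebpd*, *Cebpe*, *Cebpg* and *Cebpz*. All 6 were found by name among the 54532 genes of each expression table. The family was picked because *Cebpb* is among the genes with the smallest p between enhancer-deleted and control colon tumors. The members were thus chosen by the tumor contrast, and their tumor values are a description without a test. The crypt contrast did not enter that rule and is tested.

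RNA sequencing was used to ask how loss of ieCtnnb1, an intestinal enhancer of the β-catenin gene *Ctnnb1*, alters expression in normal crypts and in tumors. Small intestinal crypts came from adult wild-type mice and from Ctnnb1 Δi.enh mice. Colon tumors came from 5-month-old Apc Min/+ mice and from Ctnnb1 Δi.enh;Apc Min/+ mice of the same age. Each of these 4 groups had 3 mice and 3 libraries, called control and knockout below and numbered 1 to 3. The deletion was made with CRISPR/Cas9 and is homozygous in the germline, so every cell of a knockout mouse lacks the enhancer. The Min allele of *Apc* is a nonsense mutation, carried as 1 copy throughout the body by both tumor groups. All mice were on a C57BL/6 background. The crypts were released with EDTA and filtered but not sorted, and the tumors were bulk tissue.

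C/EBP α, β, δ, ε and γ bind DNA as pairs through a basic leucine zipper, with each other or with zipper proteins of the ATF group, and the γ protein lacks the activation domains of the rest. They are best known for driving the maturation of liver cells, fat cells and granulocytes and the acute phase response, and in the gut the α, β and δ proteins have been studied in epithelial cells. *Cebpz* shares the name only, since its product has no zipper and acts in the nucleolus on the large ribosomal subunit.

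The label of the deletion was checked first on *Ctnnb1* itself. Its level in control libraries 1, 2 and 3 was 121, 134 and 123 FPKM (fragments scaled by gene length and by library size) in crypts, against 102, 104 and 105 FPKM in knockout crypts. In tumors the control libraries had 299, 363 and 358 FPKM and the knockout libraries 279, 248 and 250 FPKM. Every knockout library lay below every control library in both tissues. The log2 difference, knockout minus control, was -0.28 in crypts (SE 0.118, limma adjusted p 0.849) and -0.39 in tumors (SE 0.128, limma adjusted p 0.303). It was negative under all 20 alternative processings in each tissue. The β-catenin target *Axin2* gave the same order, with 21.2 ± 1.79 and 16.5 ± 2.56 FPKM in control and knockout crypts and 102 ± 4.83 and 81.3 ± 3.81 FPKM in tumors (mean ± SD, n = 3). The tissue labels matched their markers in that the distal colon genes *Hoxb13* and *Hoxd13* were at 0 in all crypt libraries, and *Hoxb13* was at 70.1 FPKM or more in every tumor library.

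Some libraries stood apart from others of their group. Wild-type crypt libraries 1 and 2 were high in stomach markers, of which 12 summed to 207 and 123 FPKM. The sum was 15.9 FPKM in wild-type library 3 and 12.8, 19.7 and 10.1 FPKM in the knockout libraries. *Tff2* alone made up 46.4% of this list, and 6 of the 12 had means under 0.5 FPKM: *Atp4a*, *Atp4b*, *Cldn18*, *Gif*, *Muc5ac* and *Tff1*. The origin of this RNA was not tested. The tumor libraries numbered 3 came from females, with *Xist* at 114 FPKM in the control and 61.4 FPKM in the knockout, while the other tumor libraries and all crypt libraries expressed the Y-linked *Ddx3y*. The crypt differences of the members, and those of named list genes that turn, are therefore also given without the first 2 wild-type libraries, an alternative chosen after seeing the data. Tumor libraries differed in *Hoxd13*, at 0.0746, 65.7 and 63.0 FPKM in controls and 2.85, 0.176 and 42.5 FPKM in knockouts. Control library 1 and knockout libraries 1 and 2 thus nearly lacked this gene.

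The 6 genes lie at 5 places in the genome (GRCm38). *Cebpa* (chromosome 7, 35119293 to 35121928, plus strand) and *Cebpg* (chromosome 7, 35046422 to 35056573, minus strand) are neighbors, 62720 bases apart with no other protein-coding gene between them. *Cebpb* lies on chromosome 2 (167688915 to 167690418, plus strand), *Cebpd* on chromosome 16 (15887286 to 15891031, plus strand), *Cebpe* on chromosome 14 (54710360 to 54712174, minus strand) and *Cebpz* on chromosome 17 (78919006 to 78937066, minus strand). The annotated exons of *Cebpe* cover 1241 bases, those of *Cebpb* 1504 bases in 1 exon, those of *Cebpa* 2636 bases and those of *Cebpd* 3746 bases, against 5621 bases for *Cebpg* and 4658 bases for *Cebpz*, which has up to 16 exons. One *Cebpb* messenger gives a long activating and a short inhibitory protein from different start codons, and these cannot be told apart in RNA.

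The promoters of *Cebpa*, *Cebpb* and *Cebpg*, the only 3 members with an entry in the promoter table, are printed here because members of the family and their ATF partners bind near gene starts. These happen to be the 3 members whose tumor groups did not overlap. They run from 250 bases before to 50 bases after the start of transcription (RefSeq, GRCm38.p6, 5′ to 3′ on the strand of the gene). The windows are chr7:35119043-35119342 (*Cebpa*, plus strand), chr2:167688665-167688964 (*Cebpb*, plus strand) and chr7:35056517-35056816 (*Cebpg*, minus strand). Capitals mark each match to TGACG, the core of the ATF and CREB site, or to CCAAT, on either strand.
Cebpa: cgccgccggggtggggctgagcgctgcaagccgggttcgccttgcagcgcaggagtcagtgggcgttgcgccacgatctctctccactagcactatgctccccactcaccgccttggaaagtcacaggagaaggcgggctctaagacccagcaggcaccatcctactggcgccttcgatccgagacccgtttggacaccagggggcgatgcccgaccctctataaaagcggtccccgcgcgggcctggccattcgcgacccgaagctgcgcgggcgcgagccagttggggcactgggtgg
Cebpb: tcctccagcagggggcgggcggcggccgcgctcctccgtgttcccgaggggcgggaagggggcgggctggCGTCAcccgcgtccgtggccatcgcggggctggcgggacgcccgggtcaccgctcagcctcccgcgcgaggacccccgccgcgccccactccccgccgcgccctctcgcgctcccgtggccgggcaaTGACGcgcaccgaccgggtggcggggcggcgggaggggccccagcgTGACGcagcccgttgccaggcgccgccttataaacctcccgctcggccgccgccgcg
Cebpg: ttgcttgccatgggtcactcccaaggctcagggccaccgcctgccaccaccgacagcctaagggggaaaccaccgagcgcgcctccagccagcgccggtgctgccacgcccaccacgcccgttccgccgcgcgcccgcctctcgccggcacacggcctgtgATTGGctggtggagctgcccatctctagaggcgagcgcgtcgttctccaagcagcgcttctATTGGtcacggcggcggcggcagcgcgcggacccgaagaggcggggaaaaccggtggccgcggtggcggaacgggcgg

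Promoters were matched for 3 of the 6 members, and *Cebpd*, *Cebpe* and *Cebpz* had none. The *Cebpb* window holds TGACG at 3 places, 180 bases before the start on the minus strand and 53 and 7 bases before it on the plus strand. The letters TGACG, on either strand, occur in 20.8% of the 32851 promoters of the table. The *Cebpg* window holds CCAAT at 2 places, both on the minus strand, 89 and 28 bases before the start, and 37.4% of all promoters hold that motif. The *Cebpa* window holds neither. The other 5 motifs searched on both strands were in none of these 3 windows: the C/EBP palindrome TTGCGCAA (0.183% of all promoters), its looser form TTGCNNAA (10.8%, which includes every TTGCGCAA), TGACGTCA (1.79%, which includes TGACG), the TCF motif CTTTGA (16.0%) and the STAT motif TTCNNNGAA (8.30%). Share of G and C was 67.3% in the *Cebpa* window, 80.7% in that of *Cebpb* and 71.7% in that of *Cebpg*, above the median of 52.7%. These matches are letters in a window and no binding was measured.

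*Cebpb*, the member that chose the family, encodes C/EBPβ, a factor induced by cytokines and stress in many cell types. In wild-type crypt libraries 1, 2 and 3 it measured 19.7, 16.6 and 15.2 FPKM, and in knockout crypts 26.8, 27.9 and 17.7 FPKM. Knockout libraries 1 and 2 were above every control, while knockout library 3 fell inside the control range, so the groups overlapped. The means were 17.2 ± 2.32 and 24.2 ± 5.62 FPKM (n = 3), a log2 difference of 0.46 (SE 0.201, limma adjusted p 0.849 over 14176 genes, exact permutation p 0.2, where 0.1 is the lowest that 3 against 3 allows). The sign was the same in all 21 alternatives, and without the first 2 wild-type libraries the value was 0.63.

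In tumors *Cebpb* was at 30.2, 28.8 and 30.2 FPKM in the controls and at 48.0, 43.8 and 49.2 FPKM in the knockouts. All 3 knockout libraries lay above all controls, with 13.6 FPKM between the lowest knockout and the highest control. This is the pattern that chose the family. The means were 29.7 ± 0.818 and 47.0 ± 2.84 FPKM, a ratio of 1.58 and a log2 difference of 0.65 (SE 0.0805). In these bulk samples more cells that express the gene and more RNA in each cell cannot be told apart, for this and every value below.

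*Cebpa* encodes C/EBPα, which halts division in several cell types as they mature. Its crypt levels were 32.2, 26.1 and 23.4 FPKM in wild-type and 28.4, 34.5 and 24.2 FPKM in knockout libraries. The groups lay on top of each other, each with 1 library above 30 FPKM. The means were 27.3 ± 4.51 and 29.0 ± 5.21 FPKM, with a log2 difference of 0.09 (SE 0.179, limma adjusted p 0.965, exact permutation p 0.7). The sign turned when wild-type library 3 or knockout library 2 was left out.

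Tumor levels of *Cebpa* were 19.7, 15.5 and 16.4 FPKM in controls and 23.5, 25.1 and 23.8 FPKM in knockouts. The knockout libraries were close together and all above the controls, by 3.80 FPKM at the nearest. The means of 17.2 ± 2.17 and 24.1 ± 0.851 FPKM gave a ratio of 1.40 and a log2 difference of 0.48 (SE 0.106), smaller than that of *Cebpb*.

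*Cebpd* encodes C/EBPδ, an early acute phase factor whose messenger is induced and lost quickly. In crypts it measured 10.5, 12.0 and 5.28 FPKM in wild-type libraries and 4.79, 10.5 and 8.10 FPKM in knockout libraries. Its spread within each group exceeded the distance between them, and 1 library of each group was near 5 FPKM. The means were 9.28 ± 3.55 and 7.79 ± 2.87 FPKM (log2 difference -0.23, SE 0.365, limma adjusted p 0.952, exact permutation p 0.5). That sign was lost without knockout library 1 and without the first 2 wild-type libraries.

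Tumor levels of *Cebpd* were 17.1, 22.0 and 30.2 FPKM in controls and 28.9, 28.4 and 39.1 FPKM in knockouts. The libraries numbered 3, the females, were the highest of both groups, and control library 3 overlapped the knockouts by 1.76 FPKM. Among libraries of the same sex the knockouts were higher in both, with 17.1 and 22.0 against 28.9 and 28.4 FPKM in males and 30.2 against 39.1 FPKM in females. The ratio of the means, 23.1 ± 6.61 and 32.1 ± 6.03 FPKM, was 1.39 and thus like that of *Cebpa*, but with a wider error (log2 difference 0.49, SE 0.223). It was 0.30 without control library 1 and 0.55 without the 2 female libraries.

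*Cebpe* encodes C/EBPε, a factor of late granulocyte maturation. It had between 0 and 7 fragments per library in crypts, at most 0.360 FPKM, and between 2 and 9 fragments in tumors, at most 0.452 FPKM. This is below the filter of mean 0.5 FPKM in both tissues, so 5 of the 6 members were tested and no difference is given for *Cebpe*. Fragments were present in all 6 tumor libraries and in 3 of 6 crypt libraries.

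*Cebpg* encodes C/EBPγ, the partner without activation domains, which pairs with ATF4 on amino acid response elements. Its crypt levels were 15.1, 15.2 and 15.3 FPKM in wild-type and 14.5, 17.1 and 16.1 FPKM in knockout libraries. The wild-type libraries were nearly equal and sat inside the knockout range. The means were 15.2 ± 0.0892 and 15.9 ± 1.32 FPKM (log2 difference 0.06, SE 0.110, limma adjusted p 0.958, exact permutation p 0.4). Relative to its mean, the wild-type spread was small.

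Tumor levels of *Cebpg* were 14.2, 15.2 and 12.8 FPKM in controls and 16.3, 17.6 and 18.7 FPKM in knockouts. The knockouts were all higher, but by only 1.13 FPKM at the nearest, the closest approach among the 3 members without overlap. The means were 14.1 ± 1.21 and 17.6 ± 1.21 FPKM, with a ratio of 1.25 and a log2 difference of 0.31 (SE 0.0985). It was 0.20 without the 2 libraries numbered 3.

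*Cebpz* encodes the nucleolar protein and is compared here as a namesake outside the zipper family. In crypts it measured 14.4, 11.8 and 6.38 FPKM in wild-type and 8.11, 10.5 and 8.41 FPKM in knockout libraries. The wild-type libraries held both the highest and the lowest value. The means were 10.9 ± 4.09 and 9.01 ± 1.31 FPKM (log2 difference -0.19, SE 0.284, limma adjusted p 0.943, exact permutation p 0.6), and the sign turned without wild-type library 1 and without the first 2 wild-type libraries. In tumors it was at 10.2, 12.0 and 11.6 FPKM in controls and at 10.2, 10.8 and 11.4 FPKM in knockouts. These groups overlapped, with means of 11.3 ± 0.943 and 10.8 ± 0.590 FPKM, a ratio of 0.957 and a log2 difference of -0.06 (SE 0.0966).

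**Figure D1:**
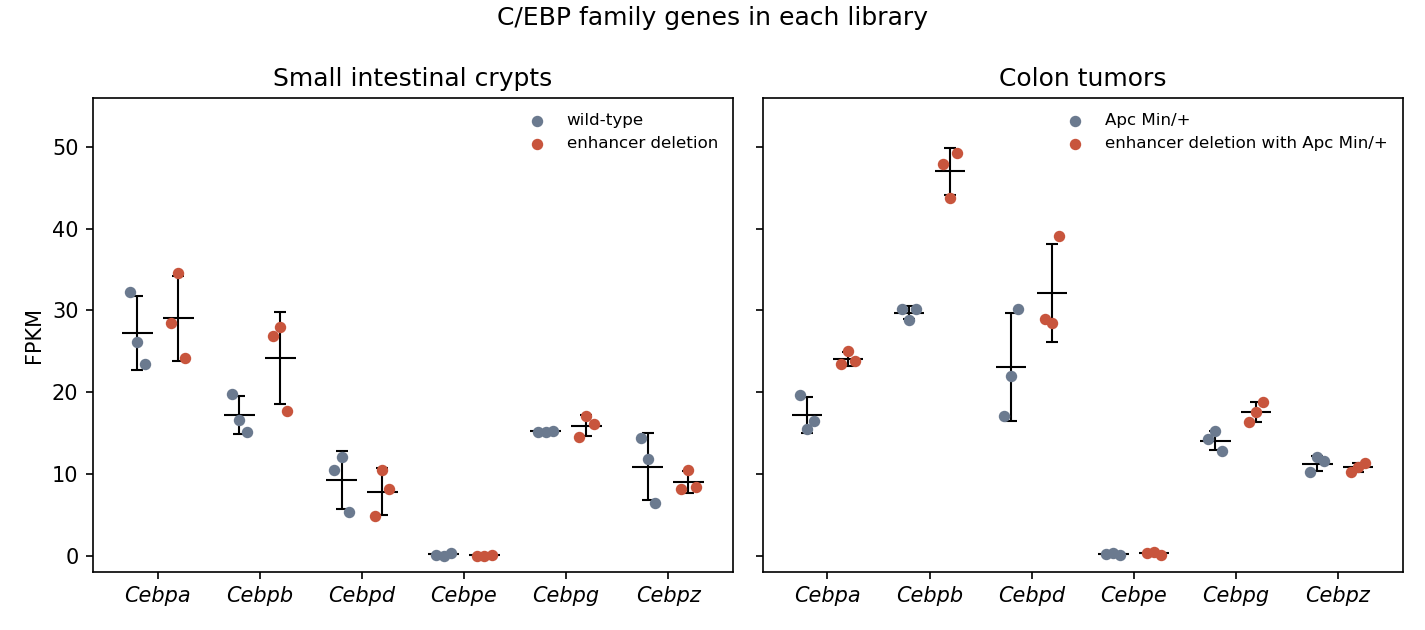
FPKM of each C/EBP member in each library (points, linear axis), crypts on the left and tumors on the right, by group. The tumor groups separate for *Cebpb* (29.7 and 47.0 FPKM), *Cebpa* and *Cebpg*, and no crypt groups separate.

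Beside all genes, no member stood out in crypts. None of the 5 tested members had a limma adjusted p under 0.05, and none of the 14176 genes did (0%). None had an unadjusted limma p under 0.05, against 494 genes higher in knockouts (3.48%) and 335 lower (2.36%). No member's crypt groups were apart, against 963 genes higher without overlap (6.79%) and 730 lower (5.15%). A count-based fit with voom also left 0 genes at adjusted p under 0.05, with 805 at unadjusted p under 0.05. *Cebpb* was among those 805, with a voom adjusted p of 0.862 in crypts. Its unadjusted limma p also fell under 0.05 with the replicate block, with protein-coding genes only, without control library 1 and without knockout library 3, and that of *Cebpz* did so without control library 3. The lowest adjusted p of *Cebpb* over all alternatives was 0.395, so its place at the unadjusted threshold depends on the fit.

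In tumors 3 of the 5 members were higher without overlap and 0 lower, against 1912 of 16743 genes higher (11.4%) and 1781 lower (10.6%). Because the contrast chose the members, nothing is read from this share. No gene of the table had a limma adjusted p under 0.05 (0%), and the lowest was 0.269, while 1417 genes were higher (8.46%) and 1004 lower (5.997%) at unadjusted p under 0.05. With voom, 0 genes passed and 2541 had an unadjusted p under 0.05. The median log2 difference over all tested genes was 0.01 in each tissue. The split of the tumor genes depended on the scaling: 58.5% of those at unadjusted p under 0.05 were higher as deposited, against 44.4% with equal totals, 46.3% after quantile scaling and 44.2% without the 50 highest genes. In crypts the share was 59.6% as deposited, 62% with equal totals, 52.8% after quantile scaling and 39.8% without those 50. The member differences kept their sign under every scaling.

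**Figure D2:**
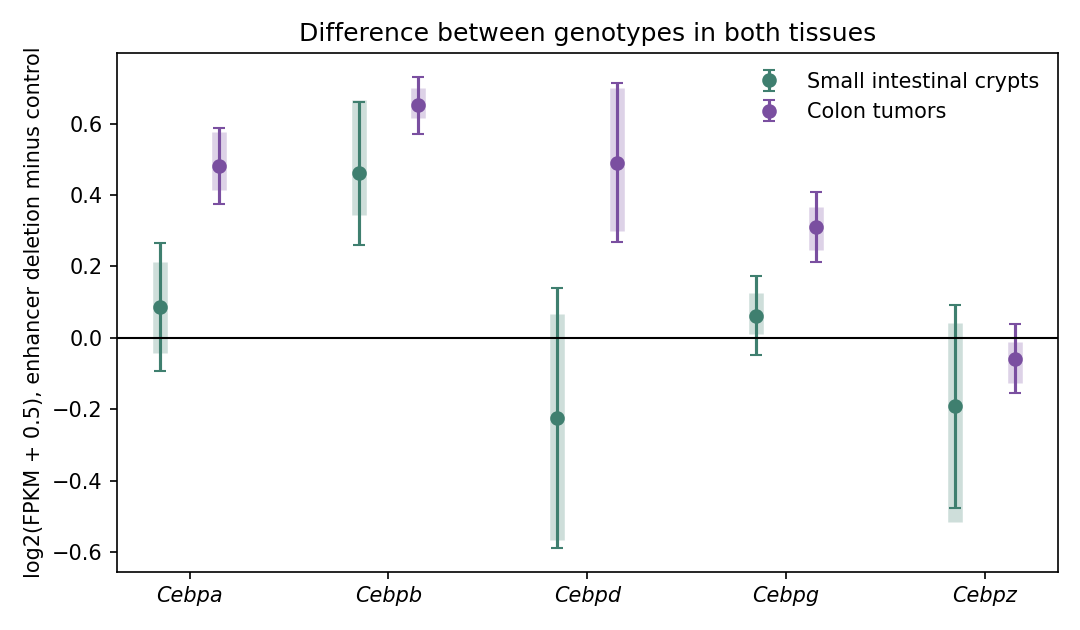
Log2 difference, knockout minus control, of the 5 tested members in crypts and tumors, with its standard error. *Cebpb*, which chose the family by its tumor values, is the largest in both (0.46 and 0.65), though its crypt groups overlap. *Cebpz* lies below 0 in both, but its crypt sign turned without wild-type library 1.

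The order of the members differed between the tissues, which is given within each table because the 2 tables were scaled apart. In wild-type crypts *Cebpa* stood first without overlap, then *Cebpb* and *Cebpg*, which overlapped, then *Cebpz* and *Cebpd*, which also overlapped, and *Cebpe* last. In knockout crypts the order was kept, but *Cebpa* and *Cebpb* now overlapped. In control tumors *Cebpb*, *Cebpd* and *Cebpa* overlapped from one to the next, above *Cebpg* and *Cebpz*. In knockout tumors the order was *Cebpb*, *Cebpd*, *Cebpa*, *Cebpg*, *Cebpz* and *Cebpe*, with no overlap between neighbors.

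Placed among the protein-coding genes tested, *Cebpa* had a higher mean than 86.3% of 11693 genes in crypts and *Cebpb* than 81.1%. *Cebpg* (75.0%), *Cebpz* (63.4%) and *Cebpd* (58.8%) were lower, so all 5 ranked in the upper part of the crypt transcriptome. Among 13320 genes in tumors the shares were 90.0% for *Cebpb*, 84.9% for *Cebpd*, 79.1% for *Cebpa*, 72.3% for *Cebpg* and 61.6% for *Cebpz*. The rank of *Cebpd* thus differed the most between tissues and that of *Cebpz* the least.

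The summed level of the 6 members was 79.9 ± 13.2 FPKM in control and 85.9 ± 13.3 FPKM in knockout crypts. In tumors it was 95.5 ± 5.08 and 132 ± 9.07 FPKM, with the controls between 91.6 and 101 FPKM and the knockouts between 126 and 142 FPKM. The crypt sums thus overlapped and the tumor sums did not. *Cebpb*, which chose the family by its tumor values, is part of these sums, so nothing is read from the tumor separation. Of that sum *Cebpb* made up 21.6% in control and 28.0% in knockout crypts, and 31.2% and 35.7% in tumors. *Cebpa* held a steady share, 34.2% and 33.7% in crypts and 18.1% and 18.3% in tumors. The share of *Cebpz* was 11.8% in control and 8.18% in knockout tumors, as its own level was alike in both groups while the sum was not.

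The ratio of *Cebpb* to *Cebpa* cancels library scaling. It was 0.612, 0.636 and 0.648 in the wild-type crypt libraries and 0.945, 0.809 and 0.732 in the knockouts. The 2 crypt groups did not overlap in this ratio, although each gene alone did. In tumors the ratio was 1.54, 1.85 and 1.84 in controls and 2.05, 1.75 and 2.07 in knockouts. There the groups overlapped. Of 3 ratios computed this was the only one apart in crypts. Among single crypt genes 6.79% were higher and 5.15% lower without overlap, and no such share was computed over other ratios. Nothing is thus read from this separation. *Cebpb* over *Cebpg* was 1.30, 1.09 and 0.993 in wild-type and 1.85, 1.63 and 1.10 in knockout crypts, and *Cebpb* over *Cebpd* was 1.87, 1.38 and 2.88 against 5.60, 2.66 and 2.19. Both overlapped in crypts, and in tumors the ratio to *Cebpg* was apart while the ratio to *Cebpd* overlapped.

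Genes that share sequence with members limit what the counts can say, because strand use of the counting is not stated and antisense fragments cannot be told apart. *Tmem189*, an enzyme gene on the opposite strand, shares 312 exonic bases with *Cebpb*. It was at 1.70 ± 0.502 and 1.20 ± 0.301 FPKM in control and knockout crypts, far below *Cebpb*, and at 8.88 ± 0.752 and 11.1 ± 0.793 FPKM in tumors, where its groups were also apart (log2 difference 0.30). How far *Cebpb* and *Tmem189* fragments are mixed was not tested. *Cebpa* shares 51 exonic bases with the antisense transcript *Gm45091*, *Cebpd* shares 562 with *Spidr*, and *Cebpz* shares 171 with *Cebpzos*. None of these 3 had crypt or tumor groups that lay apart, and their group means ranged from 0.958 to 5.99 FPKM. *Cebpg* overlaps *Gm45095*, *Gm44836* and *Gm45094*, each with a mean of at most 2.45 FPKM, and *Cebpe* overlaps no gene. The first 2 were lower without overlap in knockout tumors, at 1.97 and 0.824 FPKM and at 2.45 and 1.56 FPKM, the direction opposite to *Cebpg*.

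Among the nearest protein-coding neighbors that overlap no member, *Pepd*, which encodes a peptidase 1714 bases from *Cebpg*, was at 16.5 ± 2.08 FPKM in control and 20.5 ± 0.273 FPKM in knockout tumors. Its tumor groups were apart in the same direction as *Cebpg* and *Cebpa* (log2 difference 0.31), and its crypt groups overlapped at 98.3 and 119 FPKM. *Slc7a10*, on the far side of *Cebpa*, was near 0. *Ptpn1*, the nearest gene beyond *Cebpb* at 241639 bases, was at 19.9 and 19.0 FPKM in tumors and did not follow *Cebpb*. *Ndufaf7*, a mitochondrial assembly factor gene that starts 70 bases from *Cebpz*, was at 7.40 and 7.74 FPKM in tumors. *Mzt2* and *Pkp2* beside *Cebpd*, and *Slc7a8* beside *Cebpe*, had overlapping groups in both tissues. *Gm20431*, *Gm29776* and *Sult6b1*, the remaining neighbors, had means under 1 FPKM throughout, and *Sult6b1*, beside *Cebpz*, was lower without overlap in knockout tumors at 0.697 and 0.334 FPKM.

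The genes whose levels most resembled each member were ranked by the lower of 2 Pearson correlations, over 6 crypt and 6 tumor libraries, among 6151 genes. For *Cebpb* they were *Pex6* (0.956), *Mrps23* (0.927) and *Tufm* (0.903), genes of peroxisome assembly and of mitochondrial translation. For *Cebpa* they were *Clip2* (0.921), *Fzd5* (0.913), a Wnt receptor gene, and *Dapk2* (0.894). The patterns of *Cebpd* were nearest to *Sac3d1* (0.904) and *B3gnt7* (0.900). For *Cebpg* they were *Dctn5* (0.932), *Nans* (0.911) and *Lmna* (0.865). *Cebpz* was closest to *Wdr3* (0.873), *Rlim* (0.860) and *Cenpx* (0.856), and *Wdr3* is itself a nucleolar ribosome assembly gene. With 6 libraries a tissue, the top of 6151 genes is high by selection, so these values are a description.

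The proteins that pair with C/EBP factors were followed as a list of 9 genes of the ATF, BATF and related groups. In crypts 8 were tested and none had an unadjusted limma p under 0.05 or groups apart, with a median log2 difference of 0.18 against 0.01 over all genes. In tumors all 9 were tested, with 1 higher and 0 lower at unadjusted p under 0.05, 8 positive and a median of 0.28 against 0.01. The most abundant, *Atf4*, encodes the amino acid response factor that pairs with C/EBPβ and C/EBPγ. It was at 89.6 and 94.0 FPKM in control and knockout crypts and at 67.0 and 82.0 FPKM in tumors, with overlap in both. *Batf3* was the 1 higher gene in tumors, at 1.31 ± 0.259 and 2.199 ± 0.458 FPKM (log2 difference 0.57), and *Atf2* was lower without overlap, at 8.67 and 7.67 FPKM (log2 difference -0.16).

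Signals upstream of the family were 15 genes of cytokine, glucocorticoid, NF-κB and cAMP pathways. In crypts 11 were tested, with 0 higher and 1 lower at unadjusted limma p under 0.05 and a median log2 difference of -0.04. The STAT3 feedback inhibitor *Socs3* was that gene, at 25.5 ± 10.2 FPKM in control and 13.8 ± 1.58 FPKM in knockout crypts (log2 difference -0.80), with -0.50 without wild-type library 3 and -1.41 without the first 2 wild-type libraries. *Stat3* was also lower without overlap, at 14.7 ± 0.705 and 12.5 ± 0.899 FPKM. Neither passed over all genes (limma adjusted p 0.799 and 0.860). In tumors all 15 were tested, with 1 higher and 0 lower and a median of 0.01. The glucocorticoid receptor gene *Nr3c1* was the higher one, at 6.20 and 8.16 FPKM (log2 difference 0.36, or 0.21 without knockout library 2), and *Creb1* was narrowly apart at 6.10 and 6.32 FPKM (0.05). *Nfkbia*, the most abundant, was at 50.5 and 47.1 FPKM in crypts and 57.5 and 59.1 FPKM in tumors, and neither *Stat3* nor *Socs3* had tumor groups apart.

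Genes for enzymes that modify or degrade C/EBP proteins and for their inhibitors numbered 10, all tested in both tissues. The median log2 difference was 0.01 in crypts and -0.00 in tumors, with 0 genes at unadjusted limma p under 0.05 in crypts and 1, higher, in tumors. *Mapk3*, which encodes the ERK1 kinase that phosphorylates C/EBPβ, was the most abundant. It was at 131 and 152 FPKM in crypts and 125 and 145 FPKM in tumors, higher without overlap in both, but its tumor difference fell from 0.21 to -0.01 after quantile scaling. *Fbxw7*, a ubiquitin ligase subunit gene, was lower in knockout crypts at 1.90 and 1.71 FPKM, and *Rps6ka1* higher at 62.8 and 68.1 FPKM. The latter also turned under quantile scaling, to -0.02. In tumors the lower gene without overlap was *Celf1*, which encodes a binder of the *Cebpb* messenger, at 29.4 and 28.3 FPKM.

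Among the targets the family is known for, acute phase and inflammatory genes numbered 19. Only 5 were tested in crypts, with 0 at unadjusted limma p under 0.05 and a median log2 difference of -0.46, and the most abundant, *Nos2*, overlapped at 32.4 and 21.6 FPKM. In tumors 16 were tested, with 2 higher and 1 lower and a median of 0.00. The serum amyloid gene *Saa1* was at 35.0 ± 13.3 and 72.3 ± 9.08 FPKM in control and knockout tumors (log2 difference 1.11) and *Il1rn* at 13.9 and 18.5 FPKM (0.41, or 0.26 without control library 2). The neutrophil attractant gene *Cxcl5* went the other way, at 56.5 ± 12.1 and 32.9 ± 6.52 FPKM (-0.77), and the most abundant, *Lcn2*, overlapped at 78.9 and 70.5 FPKM. With 8.46% of all tumor genes higher and 5.997% lower at that threshold, nothing about the list is read from these counts, nor from those of the other lists.

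Granulocyte targets numbered 12, and all 8 that were tested in tumors had a log2 difference below 0, although 2 of them, *Lyz2* and *Fcgr3*, were at -0.01 and thus level. Of these 2 were lower at unadjusted limma p under 0.05 and 0 higher, with a median log2 difference of -0.27. They were the calgranulin genes *S100a8*, at 106 ± 43.5 and 53.0 ± 19.0 FPKM (log2 difference -0.98), and *S100a9*, at 184 ± 74.1 and 90.9 ± 33.9 FPKM (-1.01). Both were spread within groups: *S100a9* was at 112, 260.0 and 180.2 FPKM in controls and 110.0, 51.8 and 111 FPKM in knockouts, so control library 1 nearly met the knockouts. Without knockout library 2 the differences were -0.64 and -0.65. In crypts 3 were tested with 0 at unadjusted p under 0.05 and a median of -0.15. *Lyz2* was the most abundant in both tissues, at 11.2 and 8.83 FPKM in crypts and 356 and 356 FPKM in tumors, where its sign turned in 5 of 20 alternatives.

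Metabolic and adipocyte targets numbered 14. In crypts 9 were tested, with 0 higher and 1 lower at unadjusted limma p under 0.05 and a median log2 difference of 0.29. The lower gene was the metallothionein *Mt1*, at 162 ± 26.4 and 115 ± 9.83 FPKM (log2 difference -0.48, limma adjusted p 0.800). In tumors 11 were tested, with 1 higher and 1 lower and a median of 0.06. The fatty acid carrier gene *Fabp4* was at 1.49 and 2.72 FPKM (0.70) and *Ppargc1a* at 5.53 and 3.27 FPKM (-0.64, or -0.41 without control library 3), while *Mt1* overlapped at 109 and 114 FPKM. *Adipoq* and *Lep*, which define fat cells, were at 0 in all 12 libraries.

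The amino acid and ER stress response, where C/EBPβ and C/EBPγ pair with ATF4, was followed in 16 genes. In crypts 15 were tested, with 0 higher and 1 lower at unadjusted limma p under 0.05, 11 negative and a median log2 difference of -0.20. The lower gene was *Ppp1r15a*, at 2.29 ± 0.390 and 1.22 ± 0.196 FPKM (log2 difference -0.70, limma adjusted p 0.758). In tumors all 16 were tested, with 2 higher and 2 lower and a median of 0.11. *Nupr1*, a stress-induced chromatin gene, was at 27.3 and 40.5 FPKM (0.57). The amino acid transporters *Slc7a11*, at 7.85 and 5.01 FPKM (-0.59), and *Slc7a5*, at 22.8 and 18.2 FPKM (-0.32), were lower. The most abundant, *Ddit4* in tumors (184 and 215 FPKM) and *Slc3a2* in crypts (59.1 and 67.9 FPKM), overlapped.

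For *Cebpz* the matching list was 24 assembly factors of the large ribosomal subunit, all tested. None had an unadjusted limma p under 0.05 in either tissue, and the median log2 difference was 0.00 in crypts and -0.02 in tumors. *Npm1*, the most abundant, was at 106 and 105 FPKM in crypts and 135 and 129 FPKM in tumors. Only *Ddx21*, a nucleolar helicase gene, had groups apart, lower in knockout tumors at 39.4 and 35.5 FPKM. The median of the list thus lay near 0 in both tissues.

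Intestinal Wnt targets, 19 genes, show the pathway that the deleted enhancer feeds. In crypts 17 were tested, with 0 higher and 2 lower at unadjusted limma p under 0.05, 12 negative and a median log2 difference of -0.21. In tumors all 19 were tested, with 0 higher and 4 lower, 14 negative and a median of -0.11. *Rnf43*, a feedback inhibitor of Wnt receptors, was at 73.1 and 57.9 FPKM in tumors (-0.33), while *Sox9* was higher without overlap at 42.1 and 46.2 FPKM, a difference of 0.13 that fell to 0.01 after quantile scaling. The most abundant, *Mmp7*, was at 413 and 247 FPKM in crypts (-0.72, limma adjusted p 0.758) and overlapped in tumors at 341 and 414 FPKM. The median of the Wnt targets thus lay below 0 in tumors, with 5 genes above it. Over all 9 lists, 5 of the 9 named crypt genes without overlap and 13 of the 20 in tumors changed by over 1.5 times, or turned, under at least 1 alternative. Beside those given above, quantile scaling gave 0.11 for *Mapk3* and -0.05 for *Fbxw7* in crypts, and -0.16 for *Celf1*, -0.26 for *Ddx21* and -0.52 for *Axin2* in tumors. Without the 2 tumor libraries numbered 3, *Atf2* was at -0.04 and *Nupr1* at 0.33. *Creb1* fell to 0.00 without the 50 highest genes, and *Axin2* in crypts was at -0.23 without knockout library 3.

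**Figure D3:**
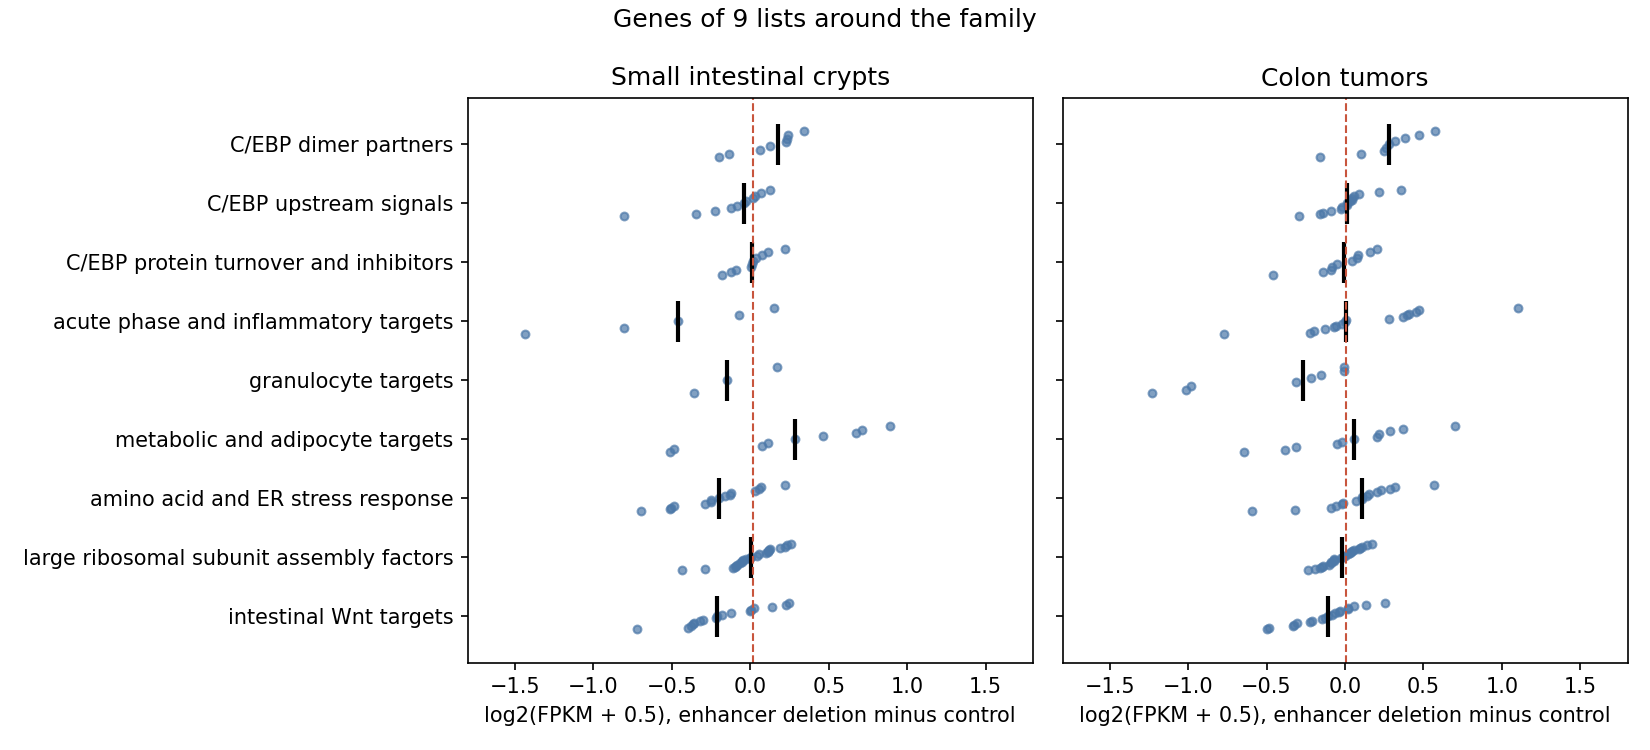
Log2 difference, knockout minus control, of each tested gene of the 9 lists, with the median of each list, in crypts and tumors. In tumors the 8 tested granulocyte targets have a median of -0.27, with *Lyz2* and *Fcgr3* level. Of the 9 dimer partners 8 are positive (median 0.28), and 1 of them had an unadjusted limma p under 0.05.

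Marker lists for 17 cell types were summed in each library, because C/EBP genes are expressed in several cell types of the gut wall. Counting tested markers only, 11 of the lists had no marker with groups apart in crypts, and 8 in tumors. Over all tumor genes 11.4% were higher and 10.6% lower without overlap, and 8.46% and 5.997% at unadjusted limma p under 0.05. In crypts these shares were 6.79% and 5.15%, and 3.48% and 2.36%. Markers of 1 cell type can move together, so their counts are a description. All 7 goblet cell markers were higher without overlap in knockout tumors, with sums of 1407, 1420 and 1455 FPKM in controls and 2689, 3222 and 2848 FPKM in knockouts and *Spink4* as the most abundant. Of 8 epithelial markers 7 were higher without overlap, with sums of 4182, 4208 and 3658 FPKM against 4938, 4824 and 5089 FPKM, and *Krt8* was the most abundant. Only 2 of the 8 had an unadjusted limma p under 0.05, the median log2 difference fell from 0.36 to 0.17 and the positive markers from 8 to 6 across scalings, and *Krt8* fell from 0.35 to 0.11 after quantile scaling. Goblet and epithelial sums thus separated the tumor groups as *Cebpb*, *Cebpa* and *Cebpg* did, the epithelial ones less steadily. The endothelial sums lay narrowly apart, at 32.5, 30.7 and 27.4 FPKM in controls and 35.1, 33.8 and 32.7 FPKM in knockouts, but only 1 of 5 markers was apart, the median was 0.05 and the most abundant, *Cdh5*, overlapped. The stomach sums were lower instead, at 35.5, 29.9 and 29.7 FPKM against 20.9, 23.4 and 13.6 FPKM, with all 4 tested markers negative and 2 at unadjusted limma p under 0.05. *Gkn3*, the most abundant of them, overlapped (-0.11) and turned in 2 of 20 alternatives, to 0.45 without control library 1. The part of these cell types in the member values was not tested. All 7 Paneth markers were also positive in tumors (median log2 difference 0.61), but no marker was apart and the sums of 1731, 1822 and 1938 FPKM in controls and 2685, 4465 and 1418 FPKM in knockouts overlapped. Of 8 colon epithelium markers 7 were positive and 1 was apart.

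Stromal and myeloid lists differed from one another in tumors. All 8 fibroblast markers were positive and 3 were apart, against 11.4% of all tumor genes higher without overlap. At unadjusted limma p under 0.05, 5 were higher, against 8.46% of all tumor genes. All 8 stayed positive under every scaling, with the median log2 difference between 0.39 and 0.46. The fibroblast sums, led by *Col1a1*, were 371, 235 and 227 FPKM in controls and 370, 488 and 383 FPKM in knockouts. Of 6 smooth muscle markers 2 were higher without overlap, with 3 positive and 3 negative. The macrophage sums were 239, 161 and 201 FPKM against 265, 335 and 221 FPKM, led by *C1qa*. Of 10 macrophage markers 9 were positive, 2 were higher at unadjusted limma p under 0.05 and 1 was apart. Neutrophil sums were 307, 579 and 411 FPKM against 313, 219 and 338 FPKM, led by *S100a9*. Of 10 neutrophil markers 3 were lower and 1 higher without overlap, and the higher one was *Ly6g* at 28.5 and 48.7 FPKM, so the markers of this cell type did not agree. No defining marker of these types was at 0 in every tumor library, and their part in the member values was not tested.

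In crypts the Paneth cell sums were 22878, 33726 and 63604 FPKM in controls and 25221, 22271 and 25256 FPKM in knockouts, with all 7 markers negative and *Defa24* the most abundant. The small intestinal enterocyte sums were 3955, 6147 and 10663 FPKM against 8416, 6182 and 9632 FPKM, with 9 of 9 markers positive. The summed levels of both lists varied as much within the wild-type group as between groups, although 2 Paneth markers were apart, *Mmp7* and *Lyz1*, the latter at 9878 ± 2215 and 6577 ± 451 FPKM. Sums of the colon epithelium list did separate the crypt groups, at 90.0, 72.4 and 60.8 FPKM in controls and 113, 113 and 143 FPKM in knockouts. Its most abundant gene *Car4* (log2 difference 0.92) and *Slc26a3* (0.46) were higher without overlap at unadjusted limma p under 0.05. The endothelial sums were apart too, but at 1.05 FPKM or less. The part of these lists in the crypt values was not tested. The neutrophil markers *Ly6g* and *S100a8* were at 0 in every crypt library. Of the stomach markers, led by *Tff2*, all 6 that were tested were lower in knockouts at unadjusted limma p under 0.05, against 2.36% of all crypt genes. *Gkn1* and *Gkn2* were at 0 in wild-type library 3 and in all knockouts. With wild-type libraries 1 and 2 left out, the crypt differences were 0.29 for *Cebpa*, 0.05 for *Cebpg* and 0.46 each for *Cebpd* and *Cebpz*. Of the named genes, *Slc3a2* then turned from 0.22 to -0.17, *Atf4* from 0.06 to -0.17, *Nfkbia* from -0.08 to 0.03 and *Npm1* from -0.00 to 0.19. Among the markers, *Fabp2* of the enterocyte list turned from 0.53 to -0.14 and *Cidec* of the adipocyte list from 0.38 to -0.14.

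**Figure D4:**
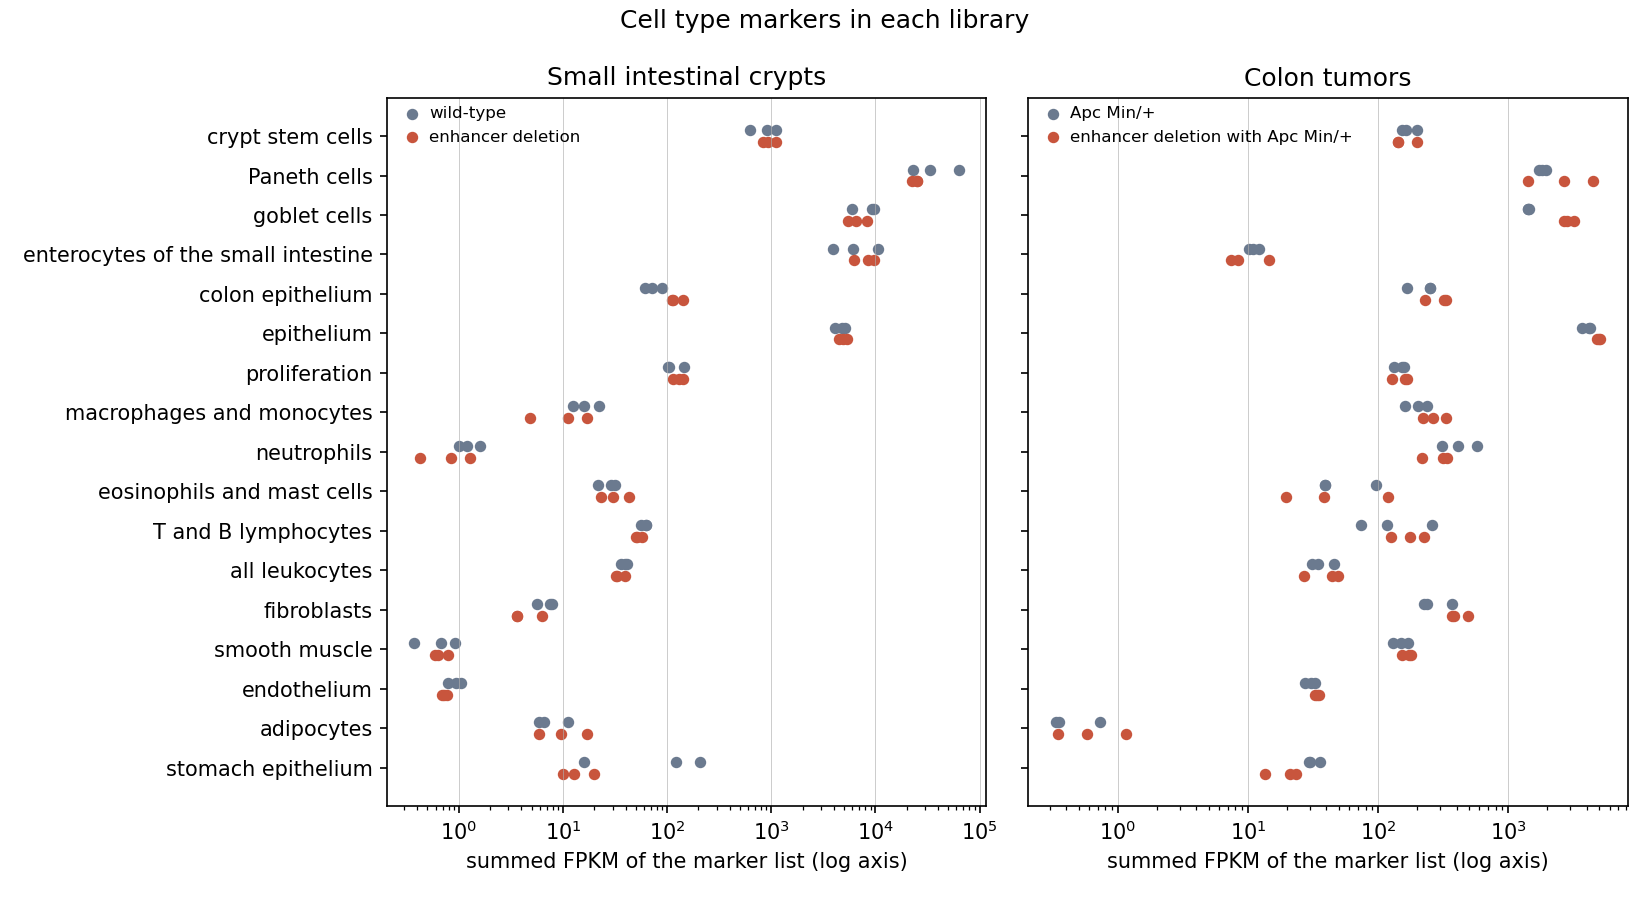
Summed FPKM of each cell type marker list in each library (points, log axis) by group, crypts on the left and tumors on the right. Goblet sums separate the tumor groups, and stomach sums set wild-type crypt libraries 1 and 2 (207 and 123 FPKM) apart.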

How the data were processed

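Values came from 2 deposited tables of FPKM per gene, 1 for crypts and 1 for tumors, which the authors scaled separately. According to the study's methods, total RNA was sequenced in 150 bp pairs, aligned with HISAT2 and counted with featureCounts, while the submitters' processing notes name mm10, cutadapt, HISAT2, Cufflinks 2.2.1 and DESeq2. Fragments recovered from FPKM and gene length came to 14457896 to 16156712 per library. Rows were matched to the family by gene name. The members and lists were chosen with earlier results of these data known.

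Differences are limma fits with trend (3.58.1, R 4.3.3) of log2(FPKM + 0.5) for genes with mean FPKM of at least 0.5, adjusted over all genes by Benjamini and Hochberg. Exact tests ran over all regroupings of 3 against 3. Python 3.11.15, pandas 2.3.3, scipy 1.17.1 and matplotlib 3.10.9 did the rest. Groups are called apart where their ranges do not overlap. Named are the members, *Ctnnb1*, *Axin2*, genes overlapping or next to a member, the 3 genes most like each member (1 is not reported), and from each list the most abundant gene and up to 2 a direction with the lowest p among genes without overlap. Apart from sex in tumors, where both libraries numbered 3 are female, libraries of the same number showed no pairing across groups (correlations of the replicates' deviations between -0.122 and 0.0541), so the replicate block served only as an alternative. Alternatives varied scaling, filter, offset, trend and libraries, and 1 was added after seeing the data.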

Additional observations from a re-analysis of the deposited data

How the results depend on the processing

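Over the alternatives *Cebpb* kept its sign in 21 of 21 in both tissues, between 0.34 and 0.67 in crypts and between 0.54 (quantile scaling) and 0.70 in tumors, and *Cebpg* kept its sign in 21 of 21. The tumor values of *Cebpb* chose the family, so nothing is read from its steady sign there. Leaving out 1 library at a time gave, in crypts, -0.04 to 0.21 for *Cebpa*, 0.34 to 0.67 for *Cebpb*, -0.57 to 0.07 for *Cebpd*, 0.01 to 0.13 for *Cebpg* and -0.52 to 0.04 for *Cebpz*. In tumors it gave 0.41 to 0.58, 0.62 to 0.70, 0.30 to 0.70, 0.25 to 0.37 and -0.13 to -0.01. In crypts *Cebpa* reversed to -0.0139 without control replicate 3 and to -0.0435 without knockout replicate 2, *Cebpd* to 0.0677 without knockout replicate 1, and *Cebpz* to 0.0408 without control replicate 1. With control libraries 1 and 2 left out *Cebpd* and *Cebpz* both reversed to 0.46, where the lone control is assumed to vary like the knockouts. Fewer libraries were fitted, and the cause was not tested further. Genes at adjusted p under 0.05 numbered 0 in crypts except 3 without control replicate 3, and 0 in tumors except 1 with no variance trend. Genes at unadjusted p under 0.05 numbered 829 in crypts, 1349 with no filter (more genes tested), 1344 without control replicate 1, 462 without knockout replicate 1 and 2240 with control libraries 1 and 2 left out. In tumors they numbered 2421, against 1399 without control replicate 2, 1436 without control replicate 3 and 1205 with both libraries numbered 3 left out. With the replicate block they numbered 732 and 1882.

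With 3 libraries a group, an exact test cannot reach a p under 0.1. *Cebpe*, at 0 to 9 fragments a library, is too shallow for a difference. The deposited values carry no strand, so overlapping genes such as *Tmem189* cannot be separated from members, and protein isoforms and binding were not measured.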
